A study of Mus musculus with 12 samples.

Results

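The replication-dependent histone genes encode the bulk H1, H2A, H2B, H3 and H4 proteins and sit together in clusters of the genome. The 67 members described here are all GENCODE M21 protein-coding genes whose symbol starts with Hist1h, Hist2h, Hist3h or Hist4, of 54115 genes with a matched transcript. By type they are 6 H1, 18 H2a, 18 H2b, 12 H3 and 13 H4 genes. The rule uses symbol and biotype only. 54 members lie on chromosome 13, 10 on chromosome 3, 2 on chromosome 11 and 1 on chromosome 6.

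In dividing cells these genes are switched on in S phase, when new DNA needs new nucleosomes, and their products are also made at low level outside it. Most of their transcripts have no introns, and most end in a conserved stem-loop instead of a poly(A) tail. The protein SLBP binds that stem-loop and, together with a small nuclear ribonucleoprotein, directs the cut that forms the end. Mature eosinophils are short-lived granulocytes that no longer divide.

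RNA was sequenced from eosinophils of 5 male FVB/NJ mice, 20 weeks old and fed chow, in 3 groups of 4 libraries. The gonadal white adipose libraries came from mice 2846, 2807, 2683 and 2668, the subcutaneous white adipose libraries from mice 2846, 2807, 2771 and 2668, and the blood libraries from mice 2807, 2771, 2683 and 2668. Values per library below follow these orders. All groups were sorted as live cells positive for CD45, CD11b and Siglec-F, so no group is free of other cells that carry these proteins. The adipose samples, unlike blood as far as the labels say, went through 45 min of collagenase II at 37 C, so tissue and digestion cannot be told apart. The library kit was made for total RNA and does not select poly(A) tails, per its name in the labels. Levels are given as read counts scaled to library size (CPM, on TMM-scaled sizes), and as TPM, which also divides by transcript length, where genes are set against each other.

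The libraries held 12477671 to 23734940 estimated reads, except the subcutaneous library of mouse 2846 with 4379954, in which 28.1% of reads came from mitochondrial rRNA, against 4.66% to 8.79% in the others. The summed reads of the 67 members were 0.0925% to 0.2605% of a library. Siglecf, which encodes the sorted surface protein, was at 189 to 524 CPM in gonadal, 149 to 467 CPM in subcutaneous and 231 to 324 CPM in blood libraries, and was not called. The other 2 sort genes and the eosinophil receptor gene Ccr3 fell in both adipose groups over blood. Their log2 fold changes in gonadal and subcutaneous over blood were -0.95 and -1.05 for Itgam (CD11b; adjusted p = 0.0152 and 0.00972), -0.90 and -0.85 for Ptprc (CD45; adjusted p = 0.0171 and 0.023), and -1.07 and -1.12 for Ccr3 (adjusted p = 0.0316 and 0.0275). The receptor gene Il5ra and Adgre1, also among the 8 eosinophil and sort markers, were not called. In the same order their log2 fold changes were -0.27 and -0.01 for Il5ra (adjusted p = 0.546 and 0.984). For Adgre1 they were 0.28 and 0.18 (adjusted p = 0.574 and 0.711). The 8 eosinophil and sort markers summed to 5153 ± 1415 CPM in gonadal, 5079 ± 1728 CPM in subcutaneous and 8525 ± 380 CPM in blood libraries (SD, n = 4 each). The granule protein genes Epx and Prg2 were low, at 1.73 to 5.70 and 0.353 to 1.44 CPM in gonadal, 0 to 7.69 and 0 to 3.02 CPM in subcutaneous, and 2.77 to 6.95 and 1.03 to 4.76 CPM in blood libraries. The other-cell markers also differed. The 10 neutrophil markers summed to 374 to 802 CPM in gonadal, 409 to 1296 CPM in subcutaneous and 2915 to 4257 CPM in blood libraries. Ly6g and Camp were at 0 in all 8 adipose libraries and had reads in the blood group. Only 8 of the 10 neutrophil markers passed the filter on low counts used for the test below. The 9 macrophage markers summed to 1276 to 6391 CPM in gonadal, 1147 to 4410 CPM in subcutaneous and 445 to 1465 CPM in blood libraries. The 7 fibroblast markers summed to 85.2 to 464 CPM in gonadal, 141 to 4087 CPM in subcutaneous and 1.69 to 13.4 CPM in blood libraries. The 6 monocyte markers summed to 904 to 6691 CPM in gonadal, 383 to 1434 CPM in subcutaneous and 89.95 to 1909 CPM in blood libraries. The 6 T cell markers summed to 1.77 to 5.33 CPM in gonadal, 23.4 to 209 CPM in subcutaneous and 9.22 to 27.8 CPM in blood libraries, and the 5 B cell markers to 2.20 to 3.24, 8.90 to 50.4 and 14.8 to 175.5 CPM in the same order. The 6 erythroid markers reached 8353 CPM in blood of mouse 2771 and 17.7 to 143 CPM in the other blood libraries. The part of these cells in the histone results was not tested. In bulk libraries, fewer cells of a type and less RNA per cell cannot be told apart.

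The stem-loop is shown first because it is the sequence that sets these transcripts apart. The search on the transcript strand was for a left arm of GGNNCT, then a loop of TTTN, then a right arm that reads AGNNCC. It found the stem-loop in 43 of 67 members, or 64.2%, against 124 of all 141767 GENCODE M21 transcripts, or 0.0875%. By type the stem-loop was found in 4 of 6 H1, 11 of 18 H2a, 9 of 18 H2b, 8 of 12 H3 and 11 of 13 H4 genes. The sites of 9 members whose levels are described below are printed 5′ to 3′ with up to 5 bases on each side, and capitals mark the stem and loop.
Hist1h1c: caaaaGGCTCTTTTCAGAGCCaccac
Hist1h1d: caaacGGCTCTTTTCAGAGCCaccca
Hist2h2ac: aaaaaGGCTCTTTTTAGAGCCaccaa
Hist1h2bg: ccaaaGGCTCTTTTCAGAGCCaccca
Hist1h2bb: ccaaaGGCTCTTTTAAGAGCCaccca
Hist1h2bm: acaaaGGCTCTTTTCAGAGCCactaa
Hist1h3e: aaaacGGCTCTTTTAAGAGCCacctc
Hist1h4d: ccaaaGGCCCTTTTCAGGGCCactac
Hist1h4c: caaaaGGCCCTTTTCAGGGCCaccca

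The core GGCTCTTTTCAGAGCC was the most frequent, in 25 members of the H1, H2a, H2b and H3 types. All 11 H4 genes with a match carried other cores. 7 of them had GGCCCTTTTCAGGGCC, 2 had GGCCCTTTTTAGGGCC and 2 had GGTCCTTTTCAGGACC, and none of these 3 cores was found in a member of another type. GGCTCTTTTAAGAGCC was found in 6 members, of which Hist1h2bb and Hist1h3e are shown above, and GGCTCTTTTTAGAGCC in Hist2h2ac alone. Hist1h1b, Hist2h2bb and Hist1h4a are among the members without a match in their annotated transcript, which says only that these letters are not in that model. Hist1h2bc, also without a match, has a transcript of 1156 bases that spans 23684199 to 23692908 on chromosome 13, so its model is spliced.

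In 21 of the 43 members with a match the annotated transcript ended within 100 bases of the stem-loop. In the other 22 it ran further, up to 4884 bases in Hist1h1d, 1861 in Hist1h2be, 840 in Hist1h1c and 770 in Hist1h4d. All 4 H1 genes with a match were of the longer kind. The deposited tables give 1 value per transcript, so reads before and after the stem-loop could not be separated. The summed level of the 22 members with a longer model was 1940, 1536, 1350 and 1318 CPM in gonadal, 868, 1473, 934 and 989 CPM in subcutaneous, and 1230, 844, 1302 and 1267 CPM in blood libraries. The gonadal values lay above all blood values, by a narrow margin. The 21 members whose model ends near the stem-loop summed to 299 ± 69.8 CPM in gonadal, 275 ± 81.6 CPM in subcutaneous and 277 ± 34.5 CPM in blood libraries (SD, n = 4 each), and these ranges overlapped. The longer kind includes Hist1h1c, Hist1h1e and Hist1h1d. They averaged 811, 292.5 and 169 CPM in gonadal and 662, 267 and 47.35 CPM in blood libraries, so these H1 genes weigh most in that sum. Per gene, the median log2 fold change of gonadal over blood in the fit below was 0.93 for tested members ending near the stem-loop. It was 0.73 for those of the longer kind.

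Summed over all members, the histone level was 2533, 1917, 1822 and 1633 CPM in gonadal, 1210, 1907, 1193 and 1427 CPM in subcutaneous, and 1669, 1157, 1659 and 1621 CPM in blood libraries. The 3 groups overlapped, and the lowest value of the blood group came from mouse 2771. No test is given for sums over members. H1 genes took most of the reads, with 65.2% ± 2.63 of the members' reads in gonadal, 60.8% ± 6.30 in subcutaneous and 64.0% ± 2.04 in blood libraries (SD, n = 4 each). On the TPM scale H1 held a smaller share, at 30.4% ± 3.41 in gonadal, 28.1% ± 4.38 in subcutaneous and 29.1% ± 2.59 in blood libraries. The annotated models behind TPM were 7425 bases long for Hist1h1d, 1930 for Hist1h1e and 1560 for Hist1h1c. Other models were far shorter, such as 312 bases for Hist1h4k, so TPM shares and ranks depend on these lengths.

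H3 was the type whose summed CPM set both adipose groups apart from blood. The 12 H3 genes summed to 86.3, 43.7, 50.6 and 38.8 CPM in gonadal, 37.4, 31.7, 29.9 and 57.6 CPM in subcutaneous, and 21.8, 16.5, 19.0 and 16.7 CPM in blood libraries. Every adipose library was above every blood library, by 1.57 in log2 between the gonadal and blood means and by 1.08 between the subcutaneous and blood means. As a share of the members' TPM, H3 was 4.35% ± 0.902 in gonadal, 3.76% ± 1.19 in subcutaneous and 1.59% ± 0.144 in blood libraries (SD, n = 4 each). In TPM sums the subcutaneous group (15.0 to 30.4) overlapped blood (6.63 to 17.6), while the gonadal group (29.1 to 57.6) did not. The annotated span of Hist2h3c1, an H3 gene with no read assigned, overlaps that of Gm20634 on the same strand. Gm20634 is not a member and had 7818 reads over all libraries, so H3 reads could be assigned outside these sums. The part of such reads in the H3 difference was not tested.

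The other types differed less. H1 sums were 1640, 1310, 1129 and 1074 CPM in gonadal, 744, 1257, 765 and 739 CPM in subcutaneous, and 1035, 723, 1089 and 1069 CPM in blood libraries. H2b sums were 266, 163, 198 and 151 CPM in gonadal, 83.8, 155, 102 and 143 CPM in subcutaneous, and 135, 101, 152 and 122 CPM in blood libraries. For H1 and H2b the highest values were gonadal, yet the ranges of gonadal and blood libraries overlapped by a narrow margin. In TPM sums the gonadal H2b range (145.9 to 212) lay above the blood range (65.3 to 128), with 48.9 to 159 in subcutaneous libraries, while H1 overlapped. H2a averaged 195 ± 48.5 CPM in gonadal, 213 ± 65.0 CPM in subcutaneous and 203 ± 44.5 CPM in blood libraries, and H4 averaged 243 ± 51.7, 184 ± 32.3 and 198 ± 36.1 CPM in the same groups (SD, n = 4 each).

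**Figure D1:**
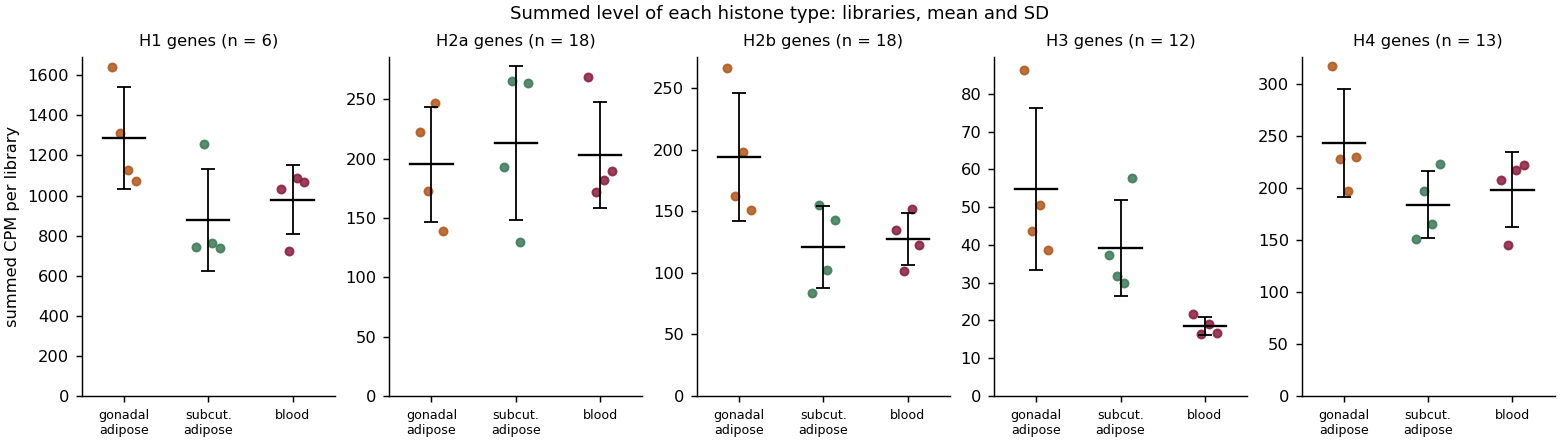
Summed CPM of the genes of each histone type in every library, with panels on separate scales that start at 0; points are libraries, long bars group means and error bars SD (n = 4). The 4 gonadal and 4 subcutaneous points of the H3 panel lie above the 4 blood points, while the groups overlap for the other types.

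To compare members with error, edgeR's quasi-likelihood test was run on 15367 genes with Benjamini-Hochberg adjustment over all of them, and an adjusted p under 0.05 was called. The filter on low counts kept 55 members: 5 H1, 14 H2a, 15 H2b, 8 H3 and 13 H4 genes. A gene high in 1 group only can pass that filter because of that group, so counts over the 55 are descriptions. The 12 members that did not pass were Hist1h1t, Hist1h2aa, Hist1h2af, Hist1h2an, Hist1h2ao, Hist1h2ba, Hist1h2bq, Hist3h2ba, Hist1h3c, Hist1h3g, Hist2h3c1 and Hist2h3c2. Hist1h2aa, Hist1h2ba and Hist2h3c1 had no read assigned in any library, and the rest had 11 to 186 reads over the 12 libraries. Every 31-base word of the Hist2h3c1 transcript also occurs in another gene, so reads that fit it could be assigned elsewhere.

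Gonadal and blood eosinophils were compared first. 9 of the 55 tested members rose and none fell, against 15.4% of all tested genes that rose and 11.6% that fell. The 9 make up 16.4% of the 55, so in this fit the share that rose was close to that of all genes. Among all 55, 42 fold changes were positive and 13 negative, with a median log2 fold change of 0.94, against 0.08 over all genes tested. 21 members had an unadjusted p under 0.05, which was not counted over all genes. DESeq2 called 20 members higher and limma-voom 29, where they called 17.1% and 23.5% of all genes. Without the shallow subcutaneous library of mouse 2846, edgeR called 18 members higher, against 18.4% of all genes. Even set against all 67 members, the counts of DESeq2, limma-voom and this refit were larger shares than those of all genes. In 16 of the 55 members every gonadal library lay above every blood library and in none below. Among all tested genes 18.6% lay above and 17.7% below, so members lay above more often and below less often.

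Among the linker histones, which bind the DNA between nucleosomes, Hist1h1d (chromosome 13, 23553262 to 23560686, plus strand) rose most firmly. It was at 252, 156, 139 and 129 CPM in gonadal, 52.7, 97.5, 71.5 and 76.4 CPM in subcutaneous, and 54.8, 29.4, 49.1 and 56.1 CPM in blood libraries. The 4 gonadal values were above all 8 others. The log2 fold change of gonadal over blood was 1.84 (SE 0.270, adjusted p = 0.000511), and it was called under each of 21 alternatives. Its annotated model runs far past the stem-loop, so these reads may include sequence beyond the histone mRNA.

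Hist1h1b was lower in level, at 24.9, 5.62, 9.93 and 3.47 CPM in gonadal, 1.5, 0.475, 4.27 and 2.58 CPM in subcutaneous, and 1.13, 1.27, 0.314 and 1.79 CPM in blood libraries. Its gonadal and blood values did not overlap, and the log2 fold change was 3.28 (SE 0.783, adjusted p = 0.00919), called under each of the same alternatives. The most abundant linker histone gene was Hist1h1c (chromosome 13, 23738808 to 23740367, plus strand), at 979, 846, 708 and 713 CPM in gonadal, 484, 888, 494 and 508 CPM in subcutaneous, and 696, 497, 729 and 725 CPM in blood libraries.

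Hist1h1c overlapped between all groups, with a log2 fold change of 0.29 for gonadal over blood (SE 0.227, adjusted p = 0.368). Hist1h1e, the second most abundant, averaged 292 ± 64.4 CPM in gonadal, 204 ± 49.6 CPM in subcutaneous and 267 ± 49.9 CPM in blood libraries (SD, n = 4 each; gonadal over blood adjusted p = 0.702). Its annotated span overlaps that of Hist1h2be on the same strand, so reads of the overlap can be assigned to either. Within the H1 reads, Hist1h1d took 12.9% ± 1.66 in gonadal, 8.63% ± 1.48 in subcutaneous and 4.78% ± 0.596 in blood libraries, and neither adipose group overlapped blood. Over the same libraries Hist1h1c took 63.3% ± 2.85, 67.2% ± 2.97 and 67.7% ± 0.803 of the H1 reads.

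Core histones of the H2a and H2b types form the dimers of the nucleosome. Hist2h2ac (chromosome 3, 96220361 to 96220880, minus strand) was at 28.4, 18.6, 19.1 and 20.5 CPM in gonadal, 16.2, 13.1, 8.49 and 25.2 CPM in subcutaneous, and 8.55, 7.61, 11.2 and 8.19 CPM in blood libraries. All gonadal values exceeded all blood values, and the log2 fold change was 1.29 (SE 0.303, adjusted p = 0.00872), called under each alternative. It was the only H2a gene called in this comparison.

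The most abundant H2a values belonged to Hist2h2aa2 and Hist2h2aa1, 2 near-identical copies on chromosome 3 between which reads could be split either way. None of the 31-base words of Hist2h2aa2 was absent from all other genes, and 10.2% of those of Hist2h2aa1 were. The annotated span of Hist2h2aa1 also overlaps that of Gm20634 on the same strand, which had 7818 reads over the 12 libraries. Reads of that overlap can be assigned outside the pair. Gm20633 and Gm20632 overlap Hist2h2aa1 and Hist2h2aa2 on the other strand. Summed, the pair was at 130, 117, 144 and 93.9 CPM in gonadal, 153, 196, 79.5 and 200.3 CPM in subcutaneous, and 153, 120, 130.2 and 118 CPM in blood libraries. The groups overlapped. Alone, Hist2h2aa1 was at 32.8 to 56.6 CPM in gonadal and 15.8 to 27.7 CPM in blood libraries (adjusted p = 0.0535), while Hist2h2aa2 was at 53.6 to 111 CPM in gonadal and 96.0 to 137 CPM in blood libraries (adjusted p = 0.288). Hist1h2ai, the next by TPM, ranged from 0 to 18.6 CPM in gonadal, 3.72 to 13.5 CPM in subcutaneous and 1.99 to 42.9 CPM in blood libraries.

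3 H2b genes rose. Hist1h2bg was at 47.6, 32.2, 38.7 and 31.5 CPM in gonadal, 14.4, 30.98, 22.5 and 23.7 CPM in subcutaneous, and 22.6, 10.7, 26.5 and 18.5 CPM in blood libraries. The gonadal values were above all others, with a log2 fold change over blood of 0.94 (SE 0.286, adjusted p = 0.0287). With the mouse as a replicate block the adjusted p was 0.0653, with effective length as an offset it was 0.0581, and without blood of mouse 2771 or 2668, or gonadal tissue of mouse 2846 or 2683, it reached 0.0965.

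Hist2h2bb was at 25.1, 15.4, 17.9 and 17.3 CPM in gonadal, 17.1, 8.64, 12.6 and 21.6 CPM in subcutaneous, and 10.8, 7.75, 8.17 and 6.80 CPM in blood libraries. Its gonadal and blood values did not overlap, with a log2 fold change of 1.18 (SE 0.292, adjusted p = 0.011, and 0.062 with the replicate block). It overlaps the lincRNA gene Gm42743 on the same strand and Gm20628 on the other, and the sources used here do not say whether reads were counted by strand.

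Hist1h2bm had few reads, at 2.72, 1.73, 0.903 and 0.487 CPM in gonadal, 1.5, 2.14, 1.61 and 0.441 CPM in subcutaneous, and 0, 0.141, 0 and 0 CPM in blood libraries. That is 95 reads in the gonadal, 64 in the subcutaneous and 3 in the blood group. With reads and scaled library sizes pooled over each group, the ratio of levels was 34.8 for gonadal over blood (exact 95% interval 11.5 to 172) and 36.1 for subcutaneous over blood (11.8 to 180), which covers counting error only. It was called in both comparisons (adjusted p = 0.00908 for gonadal and 0.00984 for subcutaneous) under all alternatives. The most abundant H2b gene per length, Hist1h2bk, was at 15.6 to 30.9 CPM in gonadal, 9.58 to 37.5 CPM in subcutaneous and 14.5 to 25.2 CPM in blood libraries, and was not called (gonadal over blood adjusted p = 0.546).

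H3 and H4 form the tetramer at the centre of the nucleosome. Hist1h3e, the H3 gene with the highest TPM, was at 24.6, 13.5, 13.5 and 11.8 CPM in gonadal, 3.29, 8.71, 3.35 and 17.5 CPM in subcutaneous, and 4.51, 5.59, 7.54 and 2.88 CPM in blood libraries. The gonadal values exceeded all blood values, with a log2 fold change of 1.63 (SE 0.517, adjusted p = 0.0341). The call was lost under 8 of 21 alternatives, the replicate block (adjusted p = 0.158) and the effective length offset among them, and without the gonadal or blood library of mouse 2807, without the gonadal libraries of mice 2846 or 2683, and without the blood libraries of mice 2771 or 2668.

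Hist1h3a was at 12.4, 6.20, 4.16 and 3.05 CPM in gonadal, 15.3, 3.01, 0.557 and 12.8 CPM in subcutaneous, and 0, 0.0939, 0.105 and 1.64 CPM in blood libraries. Most of its blood signal came from mouse 2668. Its log2 fold change was 3.77 for gonadal over blood (SE 1.24, adjusted p = 0.0404) and 4.05 for subcutaneous over blood (SE 1.26, adjusted p = 0.0334). Up to 8 alternatives took the adjusted p past 0.05, with a maximum of 0.104 for gonadal and 0.0964 for subcutaneous. Using no filter, leaving out both the subcutaneous library of mouse 2846 and blood of mouse 2807, or leaving out blood of mouse 2807, 2771 or 2683 did so in both comparisons, as did gonadal tissue of mouse 2846, 2807 or 2683 in the first and subcutaneous tissue of mouse 2846 or 2668 in the second. Hist2h3b, the next H3 gene by TPM, averaged 5.26 ± 2.30 CPM in gonadal, 2.06 ± 1.53 CPM in subcutaneous and 1.5 ± 1.33 CPM in blood libraries (SD, n = 4 each; gonadal over blood adjusted p = 0.117).

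Among the H4 genes Hist1h4d (chromosome 13, 23581598 to 23582735, plus strand) was at 77.4, 53.5, 56.2 and 63.1 CPM in gonadal, 29.1, 52.9, 39.8 and 49.96 CPM in subcutaneous, and 38.8, 20.7, 34.7 and 38.3 CPM in blood libraries. Its gonadal values lay above all others, with a log2 fold change over blood of 0.92 (SE 0.234, adjusted p = 0.0125) that was called under each alternative. The 3 H4 genes with the highest TPM were Hist1h4m, Hist1h4h and Hist1h4a, and none was called in any comparison. Hist1h4m was at 36.2, 32.2, 22.3 and 13.9 CPM in gonadal, 15.3, 23.3, 17.8 and 24.4 CPM in subcutaneous, and 31.5, 23.0, 43.2 and 39.6 CPM in blood libraries.

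Within H4 the makeup differed between the adipose groups and blood. Hist1h4d took 26.0% ± 2.39 of the H4 reads in gonadal, 23.1% ± 3.16 in subcutaneous and 16.5% ± 1.85 in blood libraries, with no overlap between adipose and blood. Hist1h4c took 9.16% ± 0.525, 9.75% ± 2.57 and 15.7% ± 0.684, and Hist1h4m took 10.7% ± 3.39, 10.9% ± 0.691 and 17.2% ± 2.10 in the same groups (SD, n = 4 each). For Hist1h4c and Hist1h4m all 8 adipose libraries were below all 4 blood libraries. Shares were not tested, and a higher share of 1 gene lowers those of the others.

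**Figure D2:**
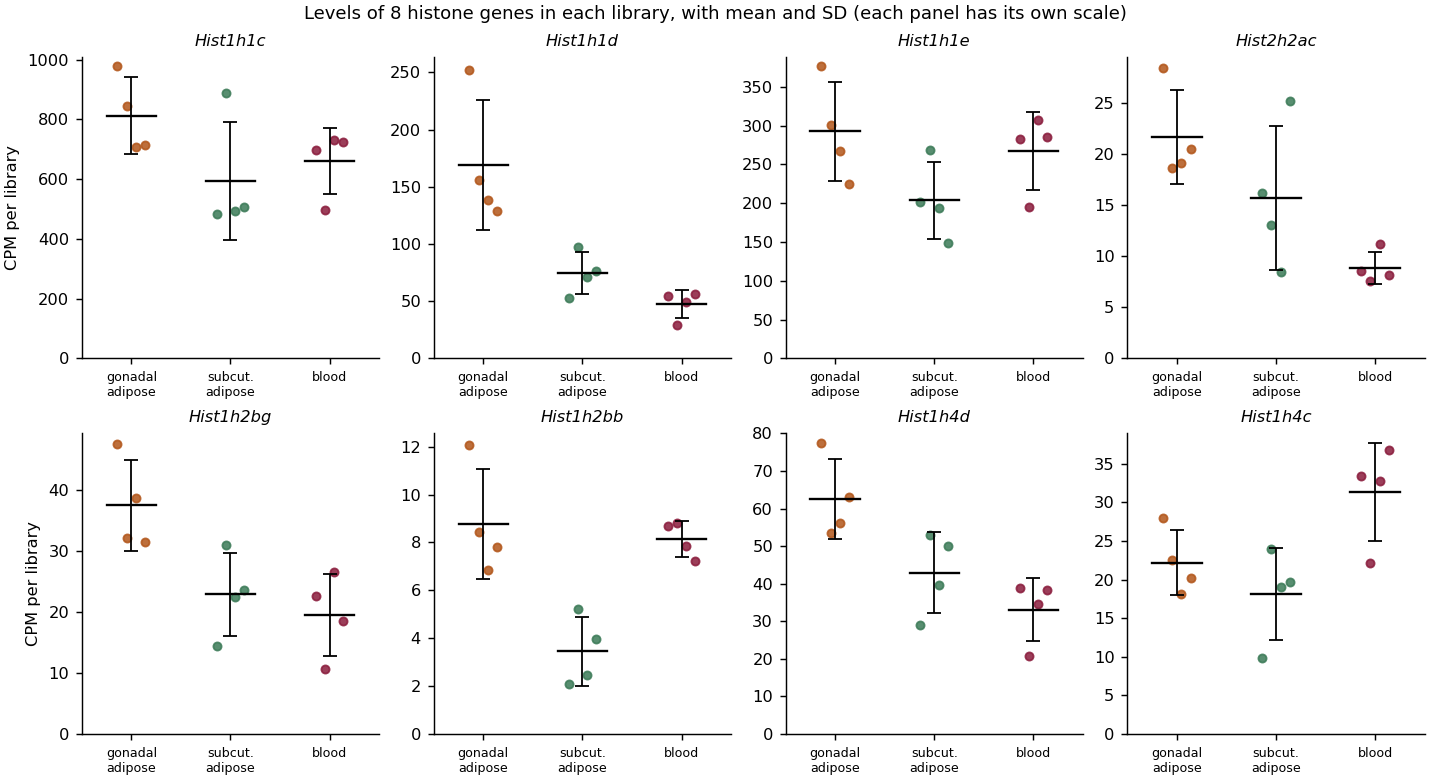
CPM of 8 histone genes in every library, each panel on its own scale that starts at 0; points are libraries, long bars means and error bars SD (n = 4). Hist1h1d, Hist1h2bg and Hist1h4d have all gonadal points above the others, Hist1h2bb has its 4 subcutaneous points below the blood points, and Hist1h1c and Hist1h1e overlap.

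In the comparison of subcutaneous with blood eosinophils, 2 of 55 tested members rose and 2 fell. Each is 3.64% of the 55, against 15.4% of all tested genes that rose and 11.4% that fell. 32 fold changes were positive and 23 negative, and the median log2 fold change was 0.24, against 0.07 over all genes tested. 11 members had an unadjusted p under 0.05, which was not counted over all genes. The 2 that rose were Hist1h2bm and Hist1h3a, whose values are given above. DESeq2 called 6 members higher and limma-voom 8, smaller shares than the 19% and 16.5% of all genes that they called. With blood of mouse 2771 left out, or blood of mouse 2683, or subcutaneous tissue of mouse 2668, 1 member was called higher. In 3 of the 55 members all subcutaneous values were above all blood values and in 2 below. These are smaller shares than the 13.8% and 15.7% of all tested genes.

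The 2 that fell were Hist1h2bb and Hist1h4c. Hist1h2bb (chromosome 13, 23746734 to 23747241, plus strand) was at 2.10, 5.23, 2.48 and 3.97 CPM in subcutaneous and 8.66, 8.83, 7.86 and 7.24 CPM in blood libraries, with 12.1, 8.43, 6.83 and 7.80 CPM in gonadal libraries. The subcutaneous values lay below all others, and the log2 fold change over blood was -1.22 (SE 0.337, adjusted p = 0.0188). Without the blood library of mouse 2771 the adjusted p was 0.0514, and without both the subcutaneous library of mouse 2846 and blood of mouse 2807 it was 0.0566.

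Hist1h4c was at 9.88, 23.9, 19.0 and 19.7 CPM in subcutaneous and 33.5, 22.1, 32.8 and 36.8 CPM in blood libraries. These ranges overlapped, with subcutaneous tissue of mouse 2807 above blood of mouse 2771, and the log2 fold change was -0.77 (SE 0.259, adjusted p = 0.0423). The call was lost under 13 of 21 alternatives, the replicate block among them (adjusted p = 0.102). The alternatives that lost it include leaving out any of the blood libraries of mice 2807, 2683 and 2668, the gonadal libraries of mice 2807 and 2668, and the subcutaneous libraries of mice 2846, 2771 and 2668, with adjusted p up to 0.103. Hist1h1d was not called here, with a log2 fold change of 0.66 (SE 0.263, adjusted p = 0.0807), and was called by limma-voom and without the subcutaneous library of mouse 2846 (adjusted p as low as 0.0272).

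**Figure D3:**
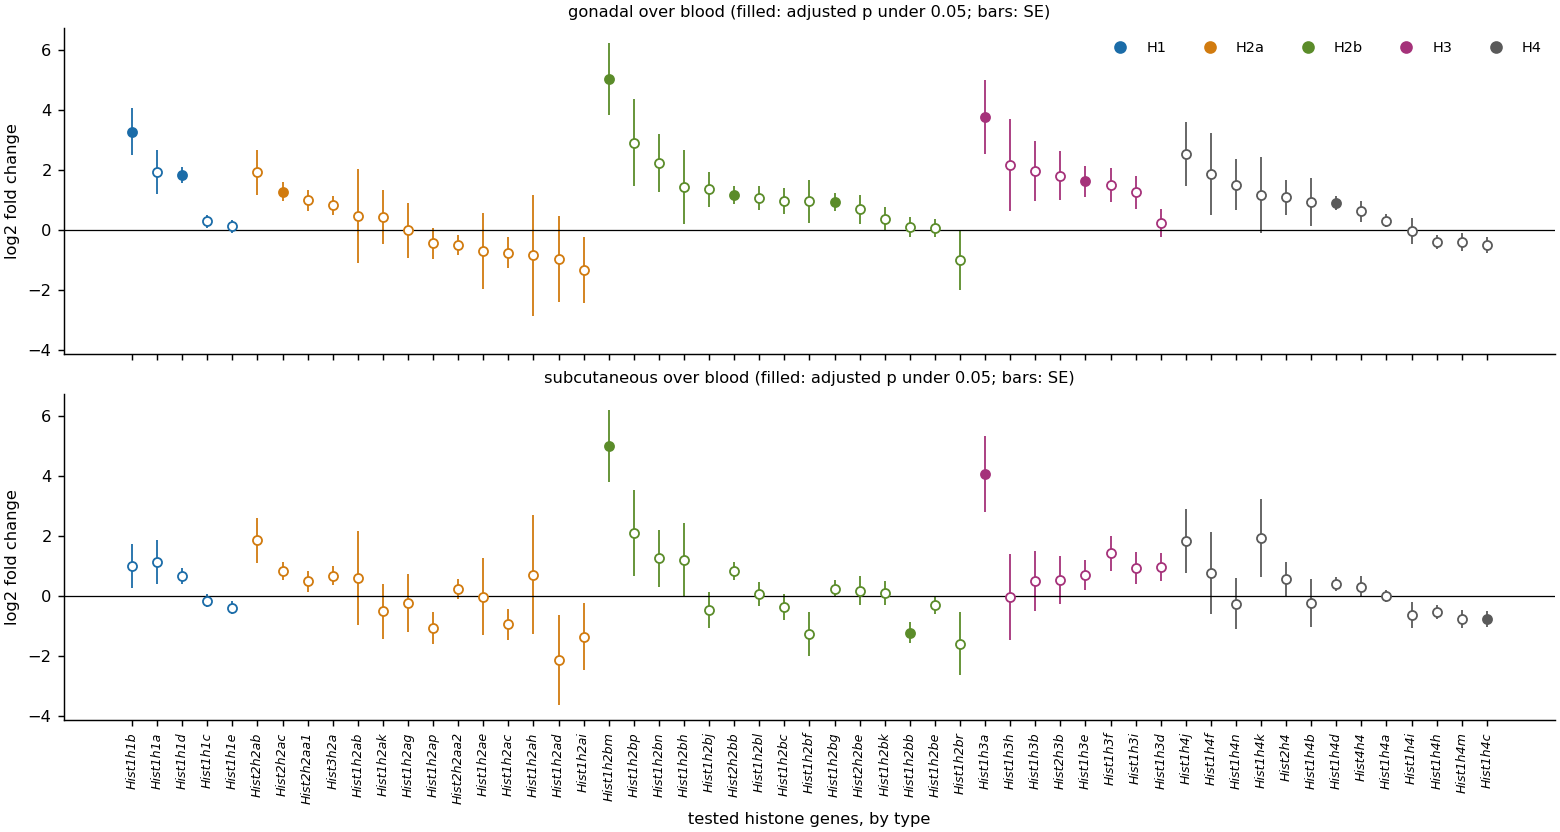
Log2 fold change with SE (vertical axis) of the 55 tested histone genes, ordered by type along the horizontal axis, for gonadal over blood (top) and subcutaneous over blood (bottom); filled points passed an adjusted p of 0.05. The top panel has 9 filled points, all above 0, and the bottom panel has 2 above and 2 below 0; both comparisons share the blood libraries.

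No member was called between gonadal and subcutaneous eosinophils by edgeR, against 0% of all genes higher and 0.00651% lower. 48 of the 55 fold changes were positive, and the median log2 fold change was 0.51, against -0.01 over all genes tested. 11 members had an unadjusted p under 0.05, which was not counted over all genes. limma-voom also called none, and DESeq2 called 2 members higher, Hist1h1d and Hist1h2bb, against 0.242% of all genes. For Hist1h1d the log2 fold change of gonadal over subcutaneous was 1.18 (SE 0.265, unadjusted p = 0.00067, adjusted p = 0.239), and for Hist1h2bb it was 1.33 (SE 0.338, unadjusted p = 0.00175, adjusted p = 0.34). In Hist1h1d, Hist1h2bg, Hist1h2bf, Hist1h4d and Hist1h2bb all gonadal values were above all subcutaneous values. These 5 of 55 tested members are a larger share than the 1.94% of all tested genes, and no member lay below, against 1.69%.

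By position, 29 members lie between 23531050 and 23764406 on chromosome 13, 18 between 21715763 and 21837530 and 5 between 22035164 and 22043676. Of the genes that rose in gonadal over blood, 5 lie in the first of these clusters, 2 in the second, none in the last and 2 in the chromosome 3 cluster of 10 members (96219865 to 96270132). 12 pairs of neighbours, each an H2a and an H2b gene, run in opposite directions from starts 175 to 305 bases apart. In 2 of these pairs 1 gene rose and its partner was not called. Hist2h2ac rose and its partner Hist2h2be had a log2 fold change of 0.69, and Hist1h2bg rose while Hist1h2ae had -0.69. In 9 pairs both genes were tested, and in none did both rise.

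RefSeq promoters (GRCm38.p6, 250 bases before to 50 after the start) matched 62 members. Both strands were searched for the letters TATAAA of a TATA box, the letters CCAAT of a CCAAT box, the octamer ATTTGCAT and the letters AAACACA known from H1 promoters. The CCAAT letters were in every H1, H2a, H2b and H3 promoter matched and in 3 of 12 H4 promoters, against 37.4% of all 32851 promoters. ATTTGCAT was in 7 of 18 H2a and 6 of 16 H2b promoters and in no promoter of the other types, against 1.74% of all. The paired H2a and H2b genes described above start 175 to 305 bases apart, so their promoter windows can overlap. A CCAAT or ATTTGCAT match in such an overlap counts for both genes, so the H2a and H2b counts are not independent. AAACACA was in 5 of 6 H1 promoters, against 7.18% of all, and TATAAA was in 35 of 62 members, against 13.6% of all. The promoters of an H1, an H2b and an H4 gene that rose in gonadal over blood are printed 5′ to 3′ on the strand of the gene, with every match to these letters on either strand in capitals. The RefSeq start of Hist1h1d lies 1770 bases from the GENCODE start used for its counts.
Hist1h1d, chr13:23554782-23555081, plus strand: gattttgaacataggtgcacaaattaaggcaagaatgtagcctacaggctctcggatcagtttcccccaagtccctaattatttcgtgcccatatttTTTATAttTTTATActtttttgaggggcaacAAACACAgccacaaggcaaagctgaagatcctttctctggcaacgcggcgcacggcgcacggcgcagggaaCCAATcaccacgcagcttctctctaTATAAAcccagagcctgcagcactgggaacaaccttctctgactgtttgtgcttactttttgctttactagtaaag
Hist1h2bg, chr13:23571150-23571449, plus strand: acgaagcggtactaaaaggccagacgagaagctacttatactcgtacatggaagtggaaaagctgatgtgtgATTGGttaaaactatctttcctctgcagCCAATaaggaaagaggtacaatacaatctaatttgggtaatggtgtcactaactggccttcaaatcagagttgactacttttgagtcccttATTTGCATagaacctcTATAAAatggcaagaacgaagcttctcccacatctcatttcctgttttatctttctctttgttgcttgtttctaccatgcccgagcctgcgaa
Hist1h4d, chr13:23581318-23581617, plus strand: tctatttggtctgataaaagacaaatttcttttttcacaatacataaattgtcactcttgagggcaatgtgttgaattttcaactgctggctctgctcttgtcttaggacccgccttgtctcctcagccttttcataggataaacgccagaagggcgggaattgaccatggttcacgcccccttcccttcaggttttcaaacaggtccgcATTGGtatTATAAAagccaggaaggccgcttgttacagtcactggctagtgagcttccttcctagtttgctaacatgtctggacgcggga

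The coding sequences of the clusters resemble each other, which bears on how firmly a read is assigned. In 39 members fewer than 50% of the 31-base words of the transcripts occurred in no other gene, and in 28 members 50% or more did. Over the tested members of the first kind, 31 in number, the median coefficient of variation within a group was 62.5%, with a median level of 4.94 CPM. Over the 24 tested members of the second kind it was 30.0%, with a median level of 8.17 CPM, so uniqueness and level moved together. 5 of the 6 H1 genes were tested and all 6 were of the second kind. Of the 9 genes that rose in gonadal over blood, Hist1h1b, Hist1h1d and Hist1h4d were of the second kind.

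**Figure D4:**
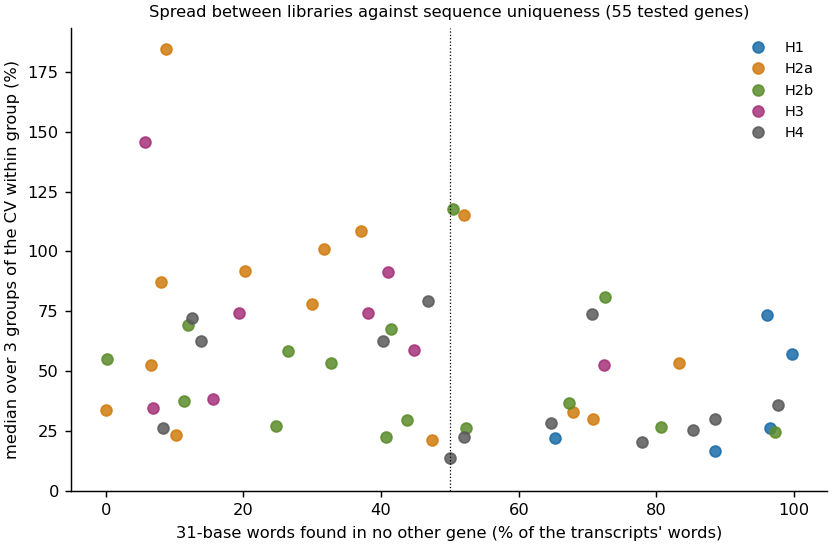
Coefficient of variation within a group (vertical axis, median over the 3 groups, in %) against the share of 31-base words found in no other gene (horizontal axis, in %) for the 55 tested members, coloured by type; the dotted line marks 50%. Left of the line the median is 62.5%, right of it 30.0%.

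Genes that act with the histone genes were read from 5 lists. The first was the histone mRNA list, with transcription, end processing and decay factors. Of its 19 tested genes 1 rose (5.26%) and 2 fell (10.5%) in gonadal over blood, and 2 rose (10.5%) and 1 fell (5.26%) in subcutaneous over blood. Among all tested genes 15.4% rose in each comparison, and 11.6% and 11.4% fell. Slbp, the stem-loop binding protein, averaged 40.4 ± 5.56 CPM in gonadal, 38.8 ± 11.9 CPM in subcutaneous and 38.8 ± 2.79 CPM in blood libraries (SD, n = 4 each; adjusted p = 0.859 for gonadal over blood). Npat, the activator of histone gene transcription, averaged 13.1 ± 4.22, 9.25 ± 2.46 and 10.7 ± 4.46 CPM in the same order (adjusted p = 0.565), and Lsm11, a subunit of the end-processing ribonucleoprotein, averaged 10.6 ± 4.38, 12.2 ± 0.951 and 8.91 ± 1.61 CPM (adjusted p = 0.554). Eri1, an exonuclease that trims histone mRNA ends, averaged 45.5 ± 5.6, 41.9 ± 11 and 33.9 ± 4.34 CPM (adjusted p = 0.109), and Zfp473 was too low to test. Casp8ap2, which works with Npat, fell in gonadal over blood, by 0.41 on the log2 scale (adjusted p = 0.0353), as did Cstf2t, a cleavage factor, by 0.73 (adjusted p = 0.00827). Srrt, which links the cap-binding complex to RNA processing, rose by 0.87 (adjusted p = 0.00843).

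The variant histones, most of which are also made outside S phase and from mRNA with poly(A) tails, were led by H3f3b. It averaged 1182 ± 116 CPM in gonadal, 861 ± 286 CPM in subcutaneous and 401 ± 39.0 CPM in blood libraries (SD, n = 4 each), with log2 fold changes over blood of 1.56 (SE 0.228, adjusted p = 0.000503) and 1.1 (SE 0.226, adjusted p = 0.0042). H3f3a, a second gene for the same H3 variant, was at 249 ± 27.7, 216 ± 56.5 and 292 ± 34.9 CPM and was not called (adjusted p = 0.389 for gonadal over blood). H1f0, the linker variant of non-dividing cells, averaged 56.3 ± 12.9, 40.4 ± 19.5 and 20.9 ± 7.03 CPM, and rose in both (log2 fold changes 1.43 and 0.95, adjusted p = 0.00778 and 0.0477). H2afz, at 50.3 ± 8.68, 46.0 ± 7.88 and 44.1 ± 3.77 CPM, and H2afx, at 3.18 ± 1.86, 2.27 ± 1.6 and 3.99 ± 0.795 CPM, were not called in either. In all, 2 of 9 tested variant genes (22.2%) rose in gonadal over blood, and 3 (33.3%) rose and 1 (11.1%) fell in subcutaneous over blood. Among all tested genes 15.4% rose in each comparison, and 11.4% fell in subcutaneous over blood. In subcutaneous over blood Cenpa, the centromere H3 variant, rose by 1.04 (adjusted p = 0.00666) and H2afv fell by 0.90 (adjusted p = 0.0406).

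The S phase genes were counted in the same way. In gonadal over blood 11 of 28 tested rose and 1 fell, with a median log2 fold change of 1.74, and in subcutaneous over blood 8 rose and 1 fell, with a median of 1.29. Over all tested genes 15.4% rose in each comparison, 11.6% and 11.4% fell, and the medians were 0.08 and 0.07. The 11 and 8 genes are 39.3% and 28.6% of the list. Mcm2, a helicase subunit, averaged 14.4 ± 6.02 CPM in gonadal, 12.6 ± 1.59 CPM in subcutaneous and 1.27 ± 0.508 CPM in blood libraries (SD, n = 4 each), with log2 fold changes of 3.49 and 3.30 over blood (adjusted p = 0.000108 and 0.000179). Uhrf1, which maintains DNA methylation at replication, and Gins1, a replication initiation subunit, rose by 4.03 (adjusted p = 0.0308) and 4.83 (adjusted p = 0.0116) in gonadal over blood, with blood means below 1 CPM. E2f2, a cell cycle transcription factor, fell in both, by 3.44 (adjusted p = 0.000776) and 2.64 (adjusted p = 0.00353).

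Of 12 tested mitosis genes 5 rose in gonadal over blood and 2 in subcutaneous over blood, or 41.7% and 16.7%, against 15.4% of all tested genes in each. Mki67, the proliferation antigen, averaged 38.1 ± 23.3 CPM in gonadal, 24.6 ± 23.1 CPM in subcutaneous and 6.10 ± 3.38 CPM in blood libraries (SD, n = 4 each; adjusted p = 0.0165 and 0.047). Top2a, the topoisomerase of dividing cells, averaged 11.8 ± 5.46, 4.58 ± 5.0 and 2.16 ± 1.29 CPM (adjusted p = 0.0247 and 0.254). The 16 mitosis genes summed to 97.3, 66.0, 137 and 29.7 CPM in gonadal, 39.2, 36.2, 86.6 and 19.4 CPM in subcutaneous, and 16.4, 28.4, 13.2 and 11.9 CPM in blood libraries. The gonadal library of mouse 2683 was highest here and in macrophage and monocyte markers (6391 and 6691 CPM), while the highest histone sum was that of the gonadal library of mouse 2846. That library of mouse 2846 also held the highest sum of the S phase list, at 328 CPM, against 310 CPM in the gonadal library of mouse 2683. Its monocyte markers summed to 3853 CPM. Which cells these transcripts came from was not tested.

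Of the 21 histone chaperones, which carry histones to and from DNA, 3 rose and 2 fell in each comparison with blood. These 14.3% and 9.52% are close to the shares of all tested genes. Hat1, which acetylates new H4, averaged 14.9 ± 2.36 CPM in gonadal, 13.3 ± 3.14 CPM in subcutaneous and 5.23 ± 1.26 CPM in blood libraries (SD, n = 4 each; adjusted p = 0.00163 and 0.00328). Daxx, a chaperone of H3 variants, averaged 22.2 ± 2.93, 28.0 ± 5.42 and 39.6 ± 2.22 CPM and fell in both (adjusted p = 0.00355 and 0.0404). No gene of the 5 lists was called between gonadal and subcutaneous libraries by edgeR.

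**Figure D5:**
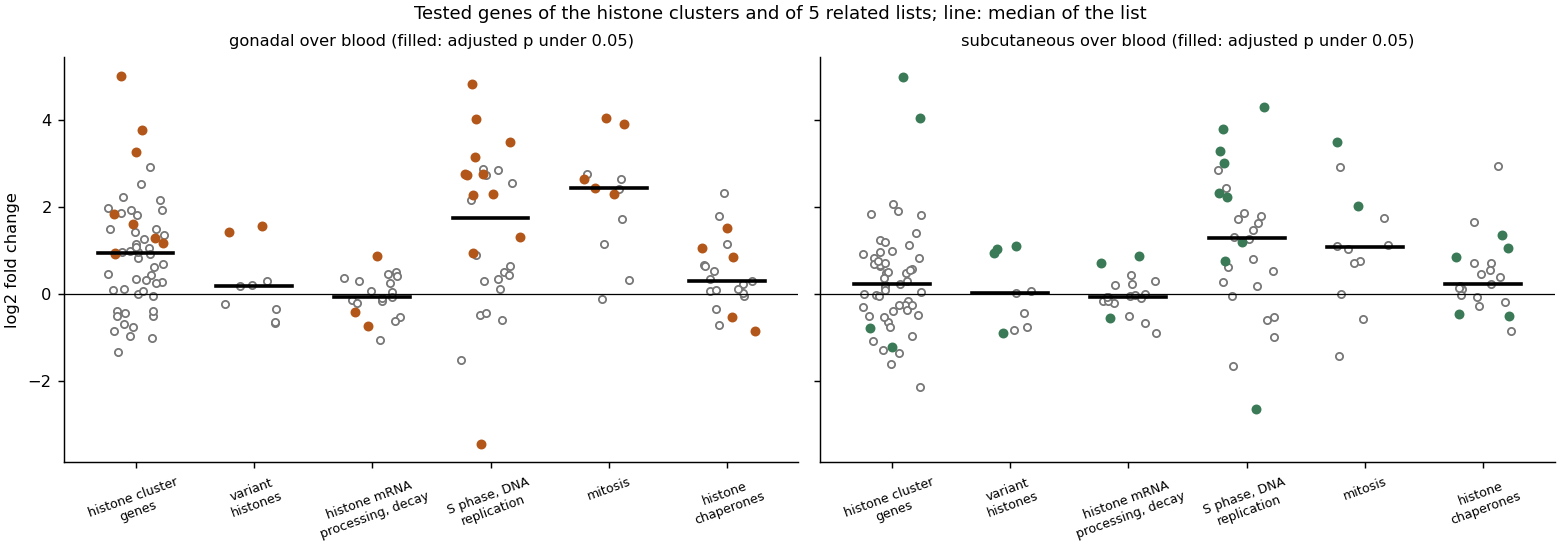
Log2 fold change (vertical axis) of the tested genes of the histone clusters and of 5 related lists (horizontal axis), for gonadal over blood (left) and subcutaneous over blood (right); points are genes, filled where the adjusted p was under 0.05, and lines are list medians. The S phase list has the most filled points above 0 in both panels, 11 on the left and 8 on the right, and the histone cluster median is 0.94 on the left and 0.24 on the right.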

How the data were processed

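The libraries were total RNA-seq of sorted mouse eosinophils, in 3 groups of 4. Per the submitters' processing notes, the tools were Salmon 1.6.0, Trim Galore 0.6.4 and DESeq2 1.30.1, with the mm10 build. The authors deposited, per the file headers, estimated counts from Salmon for 140992 transcripts, with effective lengths and TPM. These estimated counts can be fractions of a read, because a read that fits several transcripts is divided among them. The deposited TPM values were used for levels between genes, and effective lengths for an alternative offset.

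Transcripts were joined to GENCODE M21 (GRCm38), where 1201 found no match and stayed out. Estimated counts were summed per gene and rounded. edgeR 4.0.16 (quasi-likelihood, robust, TMM, filterByExpr) was fitted to all 12 libraries with group as the only term, and p-values were adjusted over 15367 genes. The SE of a log2 fold change is its size over the root of the F statistic. The test was tried on simulated counts first. Stem-loops, unique 31-base words and motifs were found by exact search. 2 transcripts, of Hist1h2bq and Hist1h2br, share a sequence and are not in the tables, so both genes were counted from their other transcripts.

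Members, gene lists and the rule for named genes were chosen with earlier results of these data known. The rule names the 3 members of each type with the highest TPM, all called members, up to 3 called genes of each list and direction, and fixed regulators and markers. Of the list symbols, Zcchc6 and Zcchc11 did not match.

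Mouse numbers mark the animal, so equal numbers pair libraries. After each group's mean was taken off, 9 such pairs correlated at -0.111 to 0.358, with a mean of 0.0842, against -0.0188 for different mice. Pairs were not part of the main design; the block is among the alternatives, which include other scalings, DESeq2 1.42.0, limma-voom (limma 3.58.1), an effective length offset, no filter and each library left out. Libraries were made by PCR, so intervals cover counting error only, and p-values measure the spread between mice.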

Additional observations from a re-analysis of the deposited data

Results flagged for a closer look

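Among 81 groups of 4 libraries examined, 9 held a library that stood apart from the other 3 by Dixon's ratio. Chance alone flags about 1 in 20 groups, and sums share their members' flags. Hist1h1c was at 888.4 CPM in the subcutaneous library of mouse 2807, against 483.9 to 508.2 CPM in the other 3, and the H1 sum of that library was 1257 CPM, against 738.9 to 765.3 CPM. In blood of mouse 2771 Hist1h1c was at 497.4 CPM, against 696.3 to 729.3 CPM in the other 3, the H1 sum was 722.9 CPM, against 1035 to 1089 CPM, and the sum of all members was 1157 CPM, against 1621 to 1669 CPM. That library also held the 8353 CPM of erythroid markers, and their part was not tested. Hist2h2aa2, a copy whose reads can go to its twin, was at 137.4 CPM in blood of mouse 2807, against 96.05 to 102.5 CPM. Hist1h3e was at 24.64 CPM in the gonadal library of mouse 2846, against 11.82 to 13.51 CPM. Hist1h3a was at 1.637 CPM in blood of mouse 2668, against 0 to 0.1048 CPM, and Hist1h2bm at 0.1409 CPM in blood of mouse 2771, where the other 3 blood libraries had no read.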

How the results depend on the processing

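No called member turned its direction under any of the 21 alternatives, and all 252 repeats of the type sums stayed within the spread between replicates. The number of members higher in gonadal than in blood libraries was 9 in the main fit, 20 with DESeq2, 29 with limma-voom and 15 without both the subcutaneous 2846 and blood 2807 libraries. Leaving out 1 library gave 6 to 18, with 18 when subcutaneous 2846 was left out. For subcutaneous over blood, the number higher was 2 in the main fit, 1 with no filter, 6 with DESeq2, 8 with limma-voom, 5 without both libraries and 1 to 3 with 1 library left out. The number lower was 2 in the main fit, 1 with no filter, limma-voom or the effective length offset, 0 without both libraries and 1 to 2 with 1 library left out. For gonadal over subcutaneous, DESeq2 called 2 higher. The cause of these differences was not tested.

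With the mouse as a replicate block, 7 members were called in gonadal over blood, 6 of them shared with the fit without it. Hist1h2bg, Hist1h3e and Hist2h2bb were lost and Hist1h3f was gained. In subcutaneous over blood the block left 1 lower, Hist1h2bb, and it changed no call between gonadal and subcutaneous libraries.

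The subcutaneous library of mouse 2846 has the fewest reads, which limits the precision of members of low level. Near-identical copies limit which gene a read belongs to. Mouse 2846 gave no blood library and mouse 2683 no subcutaneous one, so not all pairs exist.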

Other observations

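The pseudogene Hist1h2al, which is not protein-coding and so no member, had reads at the level of the larger H2a genes. It averaged 28.5 ± 12.03 CPM in gonadal, 55.3 ± 12.2 CPM in subcutaneous and 29.6 ± 9.28 CPM in blood libraries (SD, n = 4 each). The other histone pseudogenes of the clusters were at 0 or close to it: Hist1h2aj had no read, and Hist3h2bb-ps averaged 0.0438 ± 0.0641 CPM in gonadal and 0.112 ± 0.191 CPM in blood libraries.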
